A study of Mus musculus with 6 samples.

Results

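The genes described here are 10 genes of oxygen sensing, of the response to low oxygen and of glucose import: Slc2a1, Slc2a3, Pfkfb3, Hif1a, Epas1, Egln3, Adm, Bnip3, Ddit4 and Ankrd37. They were chosen by name, with earlier results of these data known, from the 31053 genes that the count tables list. All 10 were listed in all 6 libraries. Cells adapt to low oxygen through hypoxia-inducible factors, whose alpha subunits are hydroxylated by prolyl hydroxylases and degraded when oxygen is present, and are stable when it is scarce. Stable alpha subunits pair with a beta subunit and switch on genes for glucose uptake, glycolysis, blood vessel growth and the removal of mitochondria. The lung vasculature forms in the low oxygen of the uterus and meets air at birth, so that the postnatal library lies on the other side of that step.

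The study followed Cxcl12, a chemokine of arterial endothelium, with a DsRed reporter inserted into the first exon of its gene, so that a reporter allele makes no normal Cxcl12 transcript. There were 6 libraries. Of these, 4 held cells sorted for DsRed, with a gate for CD31-positive cells without CD45 or EpCAM and some CD31-negative reporter cells, from pooled Cxcl12DsRed/+ mouse lungs at 3 embryonic days (E13.5, E15.5, E18.5) and 1 postnatal day (P8). The other libraries held cells of whole E18.5 lungs, 1 library labelled Cxcl12DsRed/DsRed (homozygous null) and 1 labelled Cxcl12DsRed/+ (heterozygous control). Lungs were digested with enzymes at body temperature, and RNA was counted as unique molecular identifiers (UMIs) with a droplet 3′ method. There was 1 library per group, so no difference has a replicate check and no p-value is given. The intervals are 95% exact Poisson intervals of a level, or exact binomial intervals of a ratio, and cover counting error only.

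In the whole lungs, Cxcl12 itself went against the labels, and the names of the deposited count sets give the opposite genotypes to the labels. Gated endothelial cells held 496 CPM of Cxcl12 (UMIs per 1000000 UMIs) in the library labelled null and 4.23 CPM in the library labelled control, whereas they held 720 to 1210 CPM in the 4 sorted libraries. The names "library labelled null" and "library labelled control" are therefore used throughout, and no direction is drawn from them. These libraries shared 140 cell barcodes (1.58% of the smaller), against 0.203% to 0.457% for the other pairs. The libraries held 63746333 to 117522172 UMIs.

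All 10 are protein-coding genes, placed here on GRCm38 (mm10) by GENCODE. The importers and the glycolysis gene are Slc2a1 (ENSMUSG00000028645) at chr4:119108711-119137983 on the plus strand, Slc2a3 (ENSMUSG00000003153) at chr6:122727809-122801640 on the minus strand and Pfkfb3 (ENSMUSG00000026773) at chr2:11471433-11554077 on the minus strand. The oxygen-sensing genes are Hif1a (ENSMUSG00000021109) at chr12:73901375-73947530 on the plus strand, Epas1 (ENSMUSG00000024140) at chr17:86753700-86833410 on the plus strand and Egln3 (ENSMUSG00000035105) at chr12:54178981-54203860 on the minus strand. The other target genes are Adm (ENSMUSG00000030790) at chr7:110627661-110629820 on the plus strand, Bnip3 (ENSMUSG00000078566) at chr7:138890836-138909519 on the minus strand, Ddit4 (ENSMUSG00000020108) at chr10:59949669-59951834 on the minus strand and Ankrd37 (ENSMUSG00000050914) at chr8:45996902-46005707 on the minus strand.

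Endothelial cells (ECs) were taken as cells with at least 2 UMIs of Pecam1 and Cdh5 together, the genes of CD31 and VE-cadherin. They numbered 210 of 12726 cells in the E13.5 library, 9453 of 11649 in the E15.5, 9119 of 9542 in the E18.5 and 8259 of 8451 in the P8 library, so that the E13.5 library was mainly not endothelial by this rule. They had median depths of 5667 to 8610 UMIs. All 8 endothelial markers exceeded 10 CPM in each of these, and summed to 5310, 5759, 10397 and 12958 CPM in order of age. The 8 mesenchymal markers summed to 1060, 445, 180 and 55.4 CPM in the same ECs and the 6 erythroid markers to 22.8, 512, 1210 and 912 CPM. Epithelial markers summed to 21.1, 43.2, 73.6 and 25.1 CPM and immune markers to 54.8 to 63.3 CPM, with 4 of 7 of each list at 0 at E13.5. The part of other cells in the differences between ages was not tested.

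Ankrd37, Bnip3 and Egln3 had their highest level in ECs at E18.5 and were several-fold lower at P8. Slc2a1 was within counting error between neighbouring levels of the 3 embryonic libraries and was low at P8. Over all ECs Epas1 was lowest at E15.5 and highest at P8, and Hif1a ranged over less than 2-fold. The E15.5 low of Epas1 was not seen within the main population of ECs at E13.5, as given below. Levels are CPM of the summed UMIs of all ECs of a library. Ratios are log2 ratios with 0.5 CPM added to each level, "higher" and "lower" are used for ratios of 2-fold or more, and intervals of ratios have nothing added. Each comparison is set beside the share of all genes with a mean of at least 10 CPM that passed 2-fold in it. As the genes were chosen with earlier results known, that share is a scale and not a test.

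Among the oxygen-regulated subunits, Hif1a encodes the alpha subunit found in most cells. Its level in ECs was 86.6 CPM at E13.5, then 89.3, 71.3 and 58.8 CPM by age up to P8, and the E13.5 and E15.5 levels were within counting error of each other. The largest difference among these 4 libraries was 1.52-fold. Epas1 encodes the other alpha subunit, HIF-2 alpha, which is known for its abundance in endothelium. Its EC level was 186.5 CPM at E13.5, then 165, 340 (interval 335 to 345) and 698 CPM by age up to P8 (692 to 705). From E15.5 to E18.5 and from E18.5 to P8 the log2 ratio was 1.04 each time. Cells outside the EC rule held 3.53 CPM of Epas1 at E13.5 and 6.87 at E15.5, so that this gene separated ECs from the other sorted cells more than any other of the 10 did at E13.5. After thinning each cell to 2000 UMIs, 34.6%, 28.8%, 48.4% and 73.7% of ECs held a UMI of Epas1 in order of age (74.0%, 68.5%, 80.9% and 96.0% unthinned), against 0.581%, 1.48%, 10.6% and 31.1% of the other cells, with 2 to 197 ECs and 27 to 124 other cells left out as shallower.

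Egln3 encodes PHD3, a prolyl hydroxylase that marks alpha subunits for degradation and is itself induced by them. Its EC level was 20.5 CPM at E13.5, then 27.3, 53.2 and 0.875 CPM by age up to P8 (54 UMIs, interval 0.657 to 1.14). The first pair of libraries was within counting error, and the P8 level stood far below the other 3. The log2 ratio of P8 over E18.5 was -5.29 with 0.5 CPM added and -5.93 without (interval -6.34 to -5.54). At 2000 UMIs per cell, 9.96% of ECs held an Egln3 UMI at E18.5 and 0.199% at P8 (26.6% and 0.496% unthinned). Among cells outside the EC rule the shares were 8.59% at E18.5 and 2.03% at P8. Among the cells of at least 2000 UMIs used for these shares, median depths were 5736 and 5746 UMIs in ECs and 8288 and 4954 in the other cells. The P8 share over all ECs lay below that of the other cells, so it is not read as expression across ECs. The P8 UMIs were uneven among ECs, with 42 of the 54 in Gpihbp1-negative cells.

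Slc2a1 encodes GLUT1, the main glucose importer of endothelium. Its EC level was 26.1 CPM at E13.5, then 23.0, 23.7 and 3.84 CPM by age up to P8 (interval 3.37 to 4.36). The 3 embryonic levels were within counting error of their neighbours, and the log2 ratio of P8 over E18.5 was -2.48. Slc2a3 encodes GLUT3, a high-affinity glucose importer of neurons and leukocytes. It was near the lower limit of the data in ECs, with 2, 78, 16 and 55 UMIs in order of age, which is 1.11, 0.818, 0.266 and 0.891 CPM. Pfkfb3 encodes an enzyme whose product activates glycolysis and which endothelial sprouting is known to use. It was measured in ECs at 4.44, 3.85, 6.29 and 5.17 CPM in order of age, a range of 1.64-fold over the 4 libraries.

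Ankrd37, the gene of a small ankyrin-repeat protein and a known target of hypoxia-inducible factors, had its highest EC level at E18.5. It stood at 37.7 CPM at E13.5 (interval 29.3 to 47.8), then 115, 352 (347 to 356) and 75.5 CPM by age up to P8. Each library differed from its neighbour in level beyond counting error. At 2000 UMIs per cell, 7.21%, 19.1%, 44.5% and 12.8% of ECs held an Ankrd37 UMI in order of age (23.6%, 51.0%, 71.7% and 31.3% unthinned), against 1.90%, 1.90%, 10.9% and 10.1% of the other cells. Ankrd37 overlaps Ufsp2 and Lrp2bp on the other strand, and Slc2a1, Pfkfb3, Hif1a, Adm and Bnip3 also overlap annotated genes there. Slc2a1, Slc2a3, Pfkfb3, Hif1a and Epas1 overlap one on their own strand. Whether counting used strand is not given in the sources used here, so the levels of these 8 genes are uncertain to the extent that reads were shared.

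Bnip3 encodes a mitochondrial outer membrane protein that leads to mitophagy. ECs held it at 6.10 CPM at E13.5, then 14.2, 37.6 and 7.49 CPM by age up to P8, and the P8 level was within counting error of the E13.5 level. Of the 482 stretches of 60 bases at the 3′ ends of its transcripts, 71 (14.7%) occur in transcripts of Gm14506, Gm16439 or Gm6532, so its level is uncertain to that extent. None of the other 9 genes shared such a stretch. Adm encodes adrenomedullin, a vasodilator peptide needed for vessel growth. Its EC level was 1.11 CPM at E13.5 (2 UMIs, interval 0.134 to 4.01), then 7.78, 19.3 and 9.83 CPM by age up to P8. Ddit4 encodes REDD1, an inhibitor of the growth kinase complex mTORC1 that responds to hypoxia and to glucocorticoids. In ECs it stood at 46.6 CPM at E13.5, then 34.6, 80.7 and 60.8 CPM by age up to P8, so that over all ECs the E15.5 level was the lowest and the E18.5 level the highest.

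**Figure D1:**
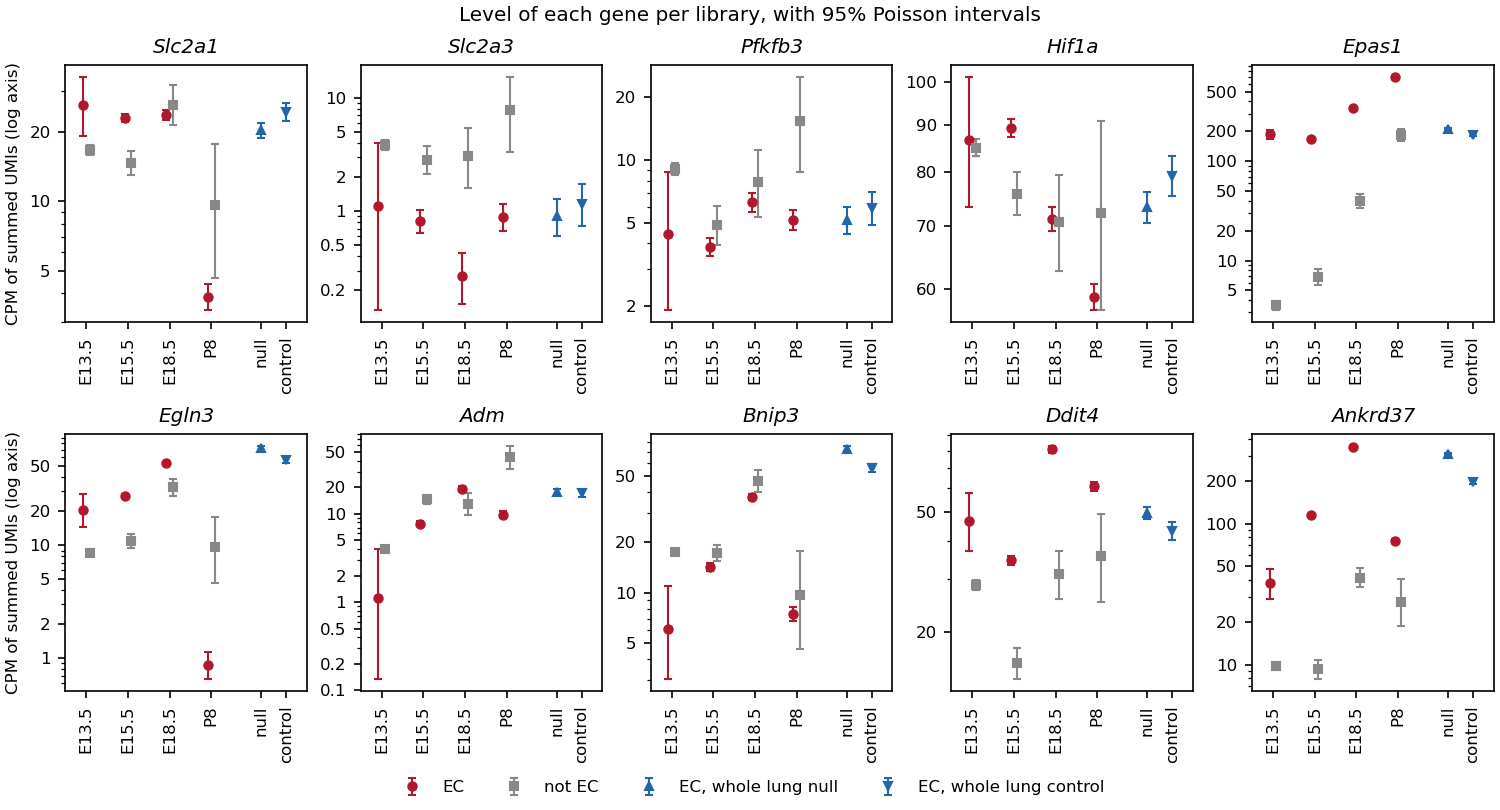
Level of each gene (CPM of summed UMIs, log axis, a scale of its own in each panel) in ECs and in the other cells of the 4 sorted libraries, and in ECs of the whole-lung libraries labelled null and control. Points are single libraries and bars are 95% Poisson intervals; between E18.5 and P8, Egln3 goes from 53.2 to 0.875 CPM and Epas1 from 340 to 698 CPM.

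From E13.5 to E15.5, 3 of the 10 genes were higher in ECs by 2-fold or more and none was lower. Over all genes 2.22% passed in that direction and 5.75% in either. The 3 genes were Adm (log2 ratio 2.36, interval without pseudocount 0.95 to 5.86), Ankrd37 (1.60, 1.27 to 1.98) and Bnip3 (1.16, 0.37 to 2.22). Adm had a mean under 10 CPM, so 2 of the 7 genes above that floor passed. The median log2 ratio was -0.06 over the 10 genes and 0.04 over these 7, and that of all genes was -0.08. Bnip3 fell short of 2-fold when cells were thinned to equal depth (0.90) and with 5 CPM added (0.79). The E13.5 library had 210 ECs with the highest mesenchymal marker level and was counted with Cell Ranger 3.1.0, the E15.5 library with 3.0.2, so that age and software cannot be told apart.

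From E15.5 to E18.5, 5 of 10 were higher and none was lower, against 8.29% of all genes higher and 12.5% in either direction. Ankrd37 had a log2 ratio of 1.60, Bnip3 of 1.37, Adm of 1.26, Ddit4 of 1.21 and Epas1 of 1.04. Just short of the line stood Egln3 at 0.95, followed by Pfkfb3 at 0.64. Slc2a1 (0.04) and Hif1a (-0.32) stayed under 2-fold. The median over the 10 genes was 1.00 on the log2 scale and 1.12 over the 8 with a mean of at least 10 CPM, and that of all genes, which have that mean too, was 0.17. Leaving mitochondrial, ribosomal protein and haemoglobin genes out of the total moved the median of all genes from 0.18 to 0.07 and took Epas1 to 0.92. Epas1 was also under 2-fold with the mean of per-cell CPM (0.95) and when cells were thinned before gating (0.82), and Adm with 5 CPM added (0.93), with the sign kept for all 5.

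From E18.5 to P8, 4 of 10 were lower and 1 was higher. Over all genes 3.67% were lower, 3.74% higher and 7.41% past 2-fold in either direction. The 4 lower genes were Egln3 (-5.29), Slc2a1 (-2.48, interval -2.83 to -2.43), Bnip3 (-2.25, -2.48 to -2.18) and Ankrd37 (-2.21, -2.27 to -2.17). The gene that was higher was Epas1 (1.04, 1.01 to 1.06), which fell under 2-fold with the mean of per-cell CPM (0.99) and without mitochondrial, ribosomal protein and haemoglobin genes in the total (0.94). Adm stood at -0.94 and Ddit4 at -0.41, and Pfkfb3 and Hif1a were at -0.26 and -0.28. The median over the 10 genes was -0.67 on the log2 scale and -1.58 over the 8 with a mean of at least 10 CPM, beside 0.04 for all genes. Birth and further age both separate the P8 from the E18.5 library and cannot be told apart, and no cause of the differences was tested. The 3 comparisons between ages share libraries (E15.5 and E18.5), so they are not independent of each other.

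The promoters of the 4 genes that were lower together at P8 are shown, as the 250 bases before the RefSeq start on GRCm38.p6, 5′ to 3′ on the gene's strand. Capitals mark ACGTG or GCGTG on either strand, the core letters to which hypoxia-inducible factors are known to bind. They lie at chr4:119108495-119108744 (plus strand, Slc2a1), chr12:54203875-54204124 (minus strand, Egln3), chr7:138909507-138909756 (minus strand, Bnip3) and chr8:45999851-46000100 (minus strand, Ankrd37).
Slc2a1: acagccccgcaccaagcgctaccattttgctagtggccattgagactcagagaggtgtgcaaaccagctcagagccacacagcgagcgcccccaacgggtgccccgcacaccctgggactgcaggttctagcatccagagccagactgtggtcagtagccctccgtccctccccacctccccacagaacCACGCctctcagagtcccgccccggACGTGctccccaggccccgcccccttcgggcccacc
Egln3: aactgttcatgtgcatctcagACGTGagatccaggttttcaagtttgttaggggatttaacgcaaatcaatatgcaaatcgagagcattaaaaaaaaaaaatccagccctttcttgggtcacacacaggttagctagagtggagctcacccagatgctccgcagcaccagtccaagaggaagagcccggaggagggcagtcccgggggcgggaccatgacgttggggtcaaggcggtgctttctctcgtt
Bnip3: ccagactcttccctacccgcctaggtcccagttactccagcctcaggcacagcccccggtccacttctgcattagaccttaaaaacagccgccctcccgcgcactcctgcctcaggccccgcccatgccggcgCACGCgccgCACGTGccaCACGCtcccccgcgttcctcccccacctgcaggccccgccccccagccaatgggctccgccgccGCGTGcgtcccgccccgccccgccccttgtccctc
Ankrd37: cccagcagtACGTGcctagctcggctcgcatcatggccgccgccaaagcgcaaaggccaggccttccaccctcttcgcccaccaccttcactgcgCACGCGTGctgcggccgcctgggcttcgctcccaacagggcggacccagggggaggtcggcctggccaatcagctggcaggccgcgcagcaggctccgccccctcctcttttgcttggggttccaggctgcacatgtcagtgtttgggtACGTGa

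The core letters occur 2 times before Slc2a1, 1 time before Egln3, 5 times before Bnip3 and 4 times before Ankrd37, where CACGTG counts on both strands and is 2 overlapping matches. RefSeq promoters matched 8 of the 10 genes, and all 8 held at least 1 match, including Hif1a (3), Adm (2) and Ddit4 (2), whose log2 ratios of P8 over E18.5 in ECs were -0.28, -0.94 and -0.41. The letters are common, and 38.6% of 32851 promoters and 41.5% of 27025 genes held at least 1 match in a window of this length. A match is a description of the letters and not a site.

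The fall of the 4 genes at P8 was also looked at within populations of ECs. Gja4 encodes a connexin known from arterial endothelium, Gpihbp1 the capillary anchor of lipoprotein lipase, and Esm1 is a known marker of sprouting tip cells. Cells with at least 2 UMIs of a gene are called positive for it. From E18.5 to P8 the EC level of Gpihbp1 went from 440 to 963 CPM, that of Esm1 from 14.4 to 84.6 and that of Gja4 from 994.5 to 830.5. A gate at 2 UMIs may therefore not take the same kind of cells at both ages. Cells positive for Gja4 alone numbered 5554, 3766 and 1524 at the 3 later ages, cells positive for Gpihbp1 alone 1081, 2028 and 1198, cells positive for none of the 3 genes 1148, 1091 and 575, and Esm1-positive cells 235, 179 and 935. The Esm1-positive cells overlap the other gates, and at P8 91.3% of them were Gpihbp1-positive and 75.0% of Gja4-positive cells were Gpihbp1-positive. Cells past more than 1 gate were 17.5%, 24.4% and 59.9% of ECs at the 3 later ages. They are in none of the first 3 populations, which therefore leave out most ECs at P8.

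In each of the 4 populations Slc2a1, Egln3, Bnip3 and Ankrd37 were lower at P8 than at E18.5 by more than 2-fold. The share of all genes that were lower was 3.1% in Gja4-alone cells, 2.97% in Gpihbp1-alone cells, 3.93% in cells past no gate and 3.52% in Esm1-positive cells. In Gja4-alone cells Egln3 went from 54.0 to 3.94 CPM, Slc2a1 from 21.4 to 5.18, Bnip3 from 46.0 to 13.1 and Ankrd37 from 283 to 115. In Gpihbp1-alone cells Ankrd37 went from 404 to 53.8 CPM, Slc2a1 from 24.8 to 3.66 and Bnip3 from 27.1 to 6.37, and Egln3 from 51.6 CPM to 0.271 (2 UMIs, interval of the log2 ratio -10.62 to -5.72). Without a pseudocount, the Ankrd37 level at P8 was 2.47-fold below that at E18.5 in Gja4-alone cells and 7.52-fold below it in Gpihbp1-alone cells. In Esm1-positive cells Slc2a1 went from 25.7 to 4.45 CPM and Ankrd37 from 327 to 70.8, and Pfkfb3 was lower there too (13.6 and 3.73 CPM, log2 ratio -1.74), while Slc2a3 had 0 and 5 UMIs. Pfkfb3 had a mean under 10 CPM there and so was not among the genes behind the share. In cells past no gate Slc2a1 had 3 UMIs at P8 (log2 interval -6.45 to -2.57), and in Esm1-positive cells Egln3 had 1 (-14.51 to -6.68). No other gene of the 10 was lower in all 4.

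Adm split between the populations over the same step. Its level went from 30.5 to 9.75 CPM in Gpihbp1-alone cells (log2 ratio -1.60, interval -2.03 to -1.28) and from 44.4 to 6.22 CPM in cells past no gate (-2.74, -3.70 to -2.09). It stood at 10.0 and 9.57 CPM at E18.5 and P8 in Gja4-alone cells (-0.06, -0.44 to 0.30) and at 9.06 and 12.6 CPM in Esm1-positive cells. Ddit4 kept its E18.5 level in Gja4-alone cells, with 115 CPM there and 113 CPM at P8 (-0.03, -0.13 to 0.08). It was close at these ages also in cells past no gate (53.5 and 55.1 CPM) and in Esm1-positive cells (60.4 and 62.2 CPM). In Gpihbp1-alone cells it was at 49.7 and 39.0 CPM. Epas1 differed between these populations before birth and was close in them at P8. It was 225.5, 410 and 648 CPM in Gja4-alone cells at the 3 later ages, and 57.3, 254 and 701 CPM in Gpihbp1-alone cells. The log2 ratio of E18.5 over E15.5 was 0.86 in the former and 2.14 (2.03 to 2.26) in the latter, and that of P8 over E18.5 was 0.66 and 1.47. At P8 Epas1 was thus higher by more than 2-fold in Gpihbp1-alone cells, in cells past no gate (1.37) and in Esm1-positive cells (1.04), where 4.27%, 4.64% and 5.59% of all genes were. In Esm1-positive cells it was at 0.99 with the mean of per-cell CPM and at 0.93 without mitochondrial, ribosomal protein and haemoglobin genes in the total. In Gja4-alone cells Slc2a3 was the gene that was higher, with 6 and 13 UMIs, beside 3.78% of all genes. Its mean was under the 10 CPM of the genes behind that share, and its log2 ratio was 0.30 with 5 CPM added. Gja4-alone cells were 90% of ECs at E13.5 (189 cells) and 58.75% at E15.5. In these cells at E13.5, Epas1 was at 196 CPM (174 to 219), so its E15.5 level was not the lowest within them. Ddit4 was at 53.2 CPM (42.3 to 66.0) in them at E13.5 and at 49.3 CPM (47.4 to 51.3) at E15.5, with overlapping intervals.

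From E15.5 to E18.5, Adm, Bnip3, Ddit4 and Ankrd37 were higher by more than 2-fold in Gja4-alone cells, in Gpihbp1-alone cells and in cells past no gate. In these 3 populations 6.73%, 13.4% and 14.3% of all genes were higher. In Gja4-alone cells Adm had a mean under 10 CPM and so was not among the genes behind the share. Adm fell under 2-fold with the mean of per-cell CPM and with 5 CPM added, to 0.90 and 0.69 in Gja4-alone cells and to 0.98 and 0.97 in Gpihbp1-alone cells. Bnip3 did so in Gpihbp1-alone cells in 3 alternatives, to 0.90 at the lowest. Ddit4 went from 49.3 to 115 CPM in Gja4-alone cells and from 11.8 to 49.7 CPM in Gpihbp1-alone cells. Egln3 passed in Gja4-alone cells, with 24.3 and 54.0 CPM (log2 ratio 1.14). The Esm1-positive cells differed, with 10.7% of all genes higher and 4.95% lower. There Pfkfb3 was higher (4.14 and 13.6 CPM, 11 and 18 UMIs), as were Ankrd37 (140 and 327 CPM) and Ddit4 (28.2 and 60.4 CPM), whereas Slc2a1 (62.1 and 25.7 CPM) and Adm (36.5 and 9.06 CPM) were lower. With the mean of per-cell CPM Slc2a1 was at -0.92 in these cells and Ddit4 at 0.96. Pfkfb3 had a mean under 10 CPM there and so was not among the genes behind the 10.7%. Slc2a3 had 2 and 0 UMIs there, and 17 and 0 in cells past no gate, so no fold is given.

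**Figure D2:**
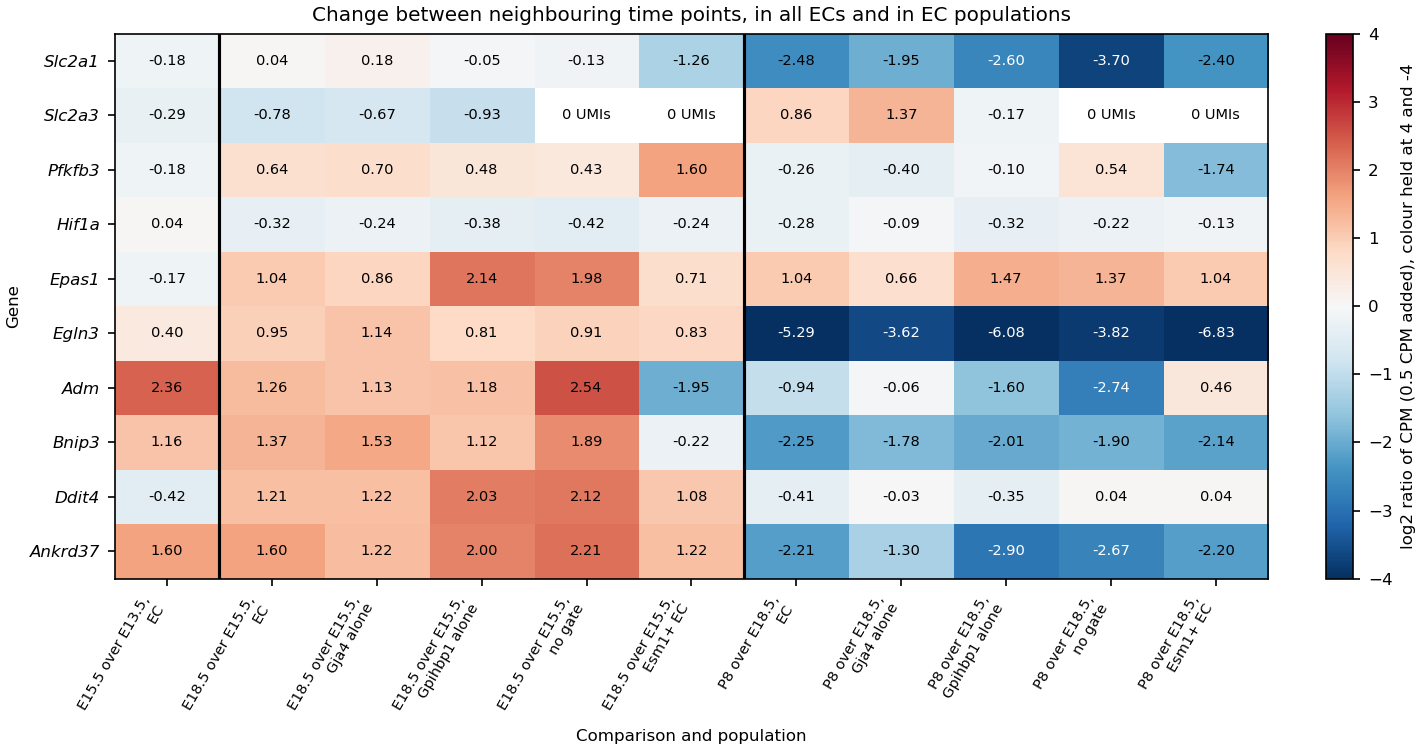
Log2 ratio of CPM (0.5 CPM added) between neighbouring time points for each gene, in all ECs and in cells positive for Gja4 alone, for Gpihbp1 alone, for none of the 3 genes and for Esm1; red is higher at the later time, and 0 UMIs marks an arm with none. The P8 columns are blue for Slc2a1, Egln3, Bnip3 and Ankrd37 in all populations, and Epas1 ranges from 0.66 to 1.47 in them.

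The gates were then compared with the other ECs of the same library. None of the 10 genes passed 2-fold in one direction at the 3 later ages for any of the 3 gates, and no comparison was made at E13.5 for want of cells, where 18 ECs lacked Gja4, 4 held Gpihbp1 and 3 held Esm1. With cells past Gja4 alone set against cells past no gate, Ddit4 was higher at E15.5 (49.3 and 11.9 CPM), E18.5 (115 and 53.5 CPM) and P8 (113 and 55.1 CPM). A gate on UMIs favours deep cells, and at E15.5 the median depth was 11342 UMIs in Gpihbp1-positive and 7954 in Gpihbp1-negative ECs.

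For Gja4 at E15.5, Epas1 and Ddit4 were higher in positive cells, against 3.4% of all genes higher and 5.57% in either direction. Epas1 stood at 199 CPM in Gja4-positive and 66.6 CPM in Gja4-negative ECs (log2 ratio 1.57), and Ddit4 at 42.4 and 11.8 CPM (1.80). Both fell under 2-fold when cells were thinned before gating, Epas1 to 0.82 and Ddit4 to 0.70. In the sorted E18.5 library neither passed, with 374 and 267 CPM of Epas1 (0.49) and 94.8 and 50.6 CPM of Ddit4 (0.90). In the whole E18.5 lungs Epas1 was nearer to 2-fold, with 275 and 144 CPM in the library labelled null and 267 and 149 CPM in that labelled control. At P8 none of the 10 passed, beside 0.907% of all genes in either direction, and the Epas1 ratio was -0.05. Ddit4 was above its level in Gja4-negative cells in 5 of 5 libraries, by log2 ratios of 0.60 to 1.80, and so was Bnip3, by 0.09 to 0.58. Adm was on the other side. At P8 the counting intervals of Bnip3 and Adm spanned 0, and with cells past Gja4 alone set against cells past no gate Adm was on the higher side there (9.57 and 6.22 CPM). It stood at 12.4 CPM in positive and 34.2 CPM in negative ECs at E18.5 (-1.43, interval -1.64 to -1.30), at 10.0 and 25.1 CPM in the library labelled null (-1.29) and at 6.76 and 22.0 CPM in the library labelled control (-1.63). Over all genes 3.16%, 2.62% and 2.04% were lower in these 3 libraries.

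For Gpihbp1, with positive cells set against all negative ones, Adm, Bnip3 and Ddit4 lay on the opposite side from that for Gja4. The gates overlap, and 57.2%, 50.9% and 78.6% of Gpihbp1-positive ECs at the 3 later ages were also Gja4-positive. At E15.5, Adm was higher in positive cells (12.7 and 5.12 CPM, log2 ratio 1.23), against 0.504% of all genes, and Ddit4 was lower (19.8 and 42.6 CPM, -1.08), against 2.89%. Adm had a mean under 10 CPM and so was not among the genes behind the share. With cells past Gpihbp1 alone set against cells past no gate, Adm was at 0.82, and Ddit4 was at -0.01, with 11.8 and 11.9 CPM. With 5 CPM added Adm was at 0.81 and Ddit4 at -0.94, and Ddit4 was at -0.77 when cells were thinned before gating. Epas1 fell just short with 100.3 and 200.4 CPM, a log2 ratio of -0.996. Ddit4 was below its level in Gpihbp1-negative cells in 5 of 5 libraries (-1.08 to -0.67), as were Bnip3 (-0.90 to -0.21) and Pfkfb3 (-0.35 to -0.20), and Adm was above it in 5 of 5 (0.17 to 1.23). The counting interval spanned 0 for Pfkfb3 in all 5 libraries, and for Adm at P8 and in the library labelled control. These sides were not all kept with Gpihbp1-alone cells set against cells past no gate. Adm was then on the lower side, by less than 2-fold, in 3 of the 5 libraries, with 30.5 and 44.4 CPM at E18.5, 24.3 and 31.2 CPM in the library labelled null and 20.6 and 27.5 CPM in that labelled control. The intervals of the 2 levels overlapped in both whole-lung libraries. Bnip3 was then on the higher side at E15.5 (12.2 and 10.0 CPM) and in the library labelled control (49.0 and 48.1 CPM), and Ddit4 in the library labelled null (38.5 and 31.9 CPM). The intervals of the levels overlapped in each of these cases of Bnip3 and Ddit4. At E18.5, and in both whole-lung libraries, none of the 10 passed 2-fold, beside 5.66%, 8.22% and 7.8% of all genes in either direction. At P8 Egln3 passed, with 12 UMIs (0.240 CPM) in positive and 42 UMIs (3.59 CPM) in negative cells, beside 3.2% of all genes lower. Its mean was under the 10 CPM of those genes, and its log2 ratio was -0.71 with 5 CPM added.

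For Esm1, the 235 positive ECs at E15.5 held higher levels of 3 of the 10 genes, against 0.545% of all genes higher and 1.71% in either direction. Adm stood at 36.5 CPM in positive and 6.95 CPM in negative cells (log2 ratio 2.31, interval without pseudocount 2.07 to 2.70). Slc2a1 stood at 62.1 and 21.9 CPM (1.48, 1.27 to 1.73), and Bnip3 at 33.5 and 13.7 CPM (1.27, 0.97 to 1.61). Egln3 was at 39.1 and 26.9 CPM (0.53). The Slc2a1 ratio fell short of 2-fold when cells were thinned before gating, at 0.45, and that of Bnip3 with the gate at 1 UMI, at 0.80. At E18.5 the 179 positive cells held Pfkfb3 at 13.6 CPM against 6.12 (1.09, 18 UMIs, 0.38 to 1.83) and Adm at 9.06 CPM against 19.6 (-1.07, 12 UMIs, -2.07 to -0.30), where 0.336% of all genes were higher and 2.14% lower. Pfkfb3 was at 0.74 with 5 CPM added and 0.50 with the gate at 1 UMI, and Adm was at -0.81 and -0.44 under these and at -0.33 when thinned. At P8 Egln3 had 1 UMI in 935 positive cells and 53 in the negative ones, a log2 ratio without pseudocount of -3.05 (-8.38 to -0.50), beside 0.438% of all genes lower, and it was at -0.23 with 5 CPM added. Pfkfb3 at E18.5 and Egln3 at P8 had means under 10 CPM and so were not among the genes behind the shares. In the whole lungs, with 98 and 81 positive cells in the libraries labelled null and control, none passed, beside 2.46% and 4.92% of all genes in either direction.

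**Figure D3:**
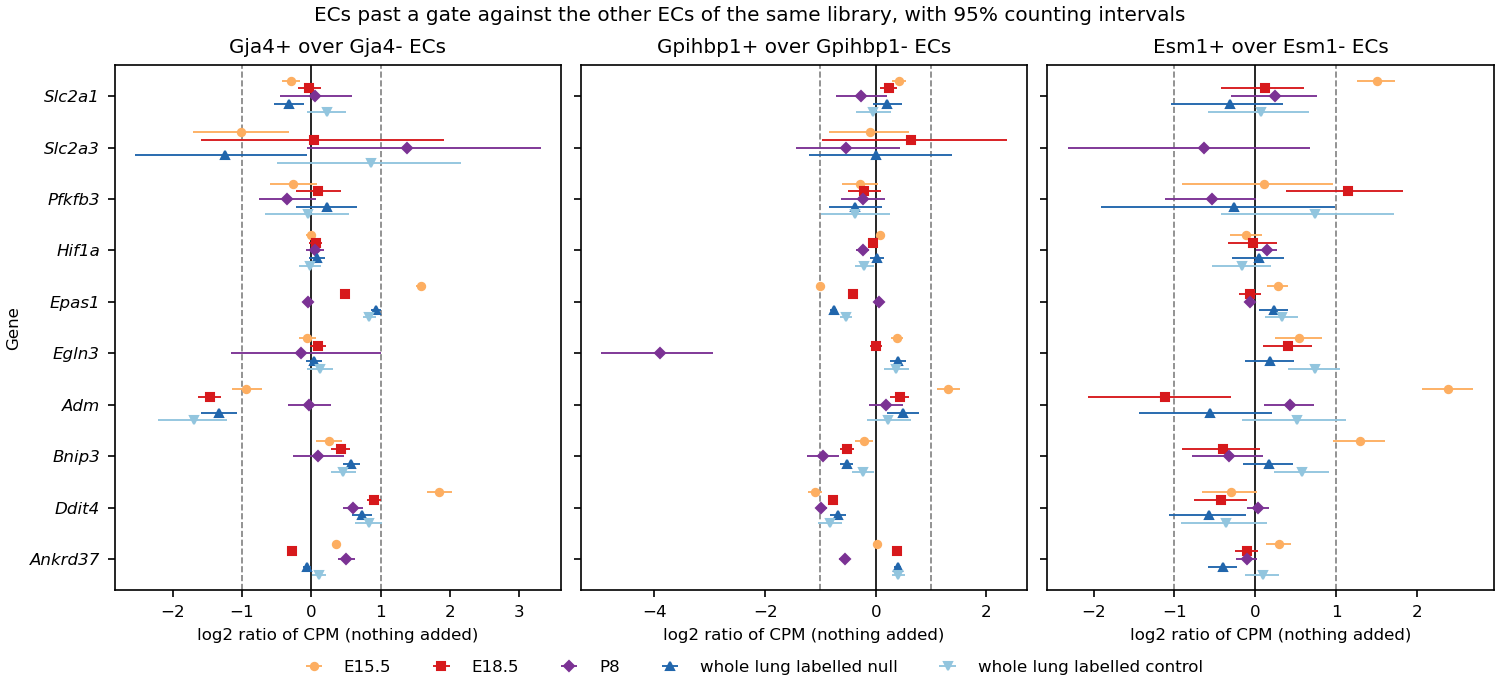
Log2 ratio of CPM with nothing added, in ECs past the Gja4, Gpihbp1 or Esm1 gate over the other ECs of the same library, for 5 libraries; bars are 95% intervals of counting error, dashed lines mark 2-fold, and points with 3 or fewer UMIs in an arm are left out. In the Gja4 panel Adm lies left of 0 and Ddit4 right of it in all 5 libraries, and in the Esm1 panel Slc2a1, Adm and Bnip3 lie beyond the line at E15.5.

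In the whole E18.5 lungs, cells were grouped by clusters into an endothelial class (2416 cells in the library labelled null and 1526 in that labelled control), an epithelial (513 and 693), a mesenchymal (4342 and 3953) and an immune class (877 and 791). Clusters with markers of more than 1 class were set aside as mixed (9.43% and 5.76% of cells), and 120 cells had no class. Among the mixed was a cluster of 332 and 208 cells that scored as endothelial and was closest to proliferating cells. It was set aside for a haemoglobin gene among its leading genes, so the endothelial class leaves these cells out. At resolution 0.4 a near-equal cluster of 538 cells was classed endothelial. The highest class was the same in both libraries for 8 of the 10 genes. Epas1 had its highest level in the endothelial class, with 245 CPM in the library labelled null and 210 CPM in that labelled control, and its lowest in the mesenchymal class, with 13.5 and 18.3 CPM. Ankrd37 was likewise highest in the endothelial class (358 and 238 CPM), followed by the epithelial class (85.0 and 72.9 CPM), and Egln3 was at 80.1 and 64.4 CPM in the endothelial class and at 47.1 and 39.2 CPM in the mesenchymal class.

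Bnip3 and Adm had their highest level in the mesenchymal class. Bnip3 was at 138 and 188 CPM there, beside 75.2 and 51.4 CPM in the endothelial class, and Adm was at 27.5 and 35.3 CPM beside 19.6 and 19.0 CPM. Slc2a1 was highest in the epithelial class (46.3 and 40.6 CPM) and was at 19.8 and 23.5 CPM in the endothelial class. Pfkfb3 was highest in the immune class (10.7 and 13.1 CPM), within counting error of the mesenchymal class in the library labelled null (10.4 CPM), and lowest in the epithelial class (under 3 CPM in each). Hif1a was within counting error between the immune (77.4 and 86.5 CPM) and endothelial classes (74.3 and 80.2 CPM) and stood at 39.4 and 46.5 CPM in the epithelial class. Slc2a3 was above 3 CPM in the mesenchymal and immune classes and under 1 CPM in the endothelial and epithelial classes of both libraries. Ddit4 was at 55.3 and 52.2 CPM in the endothelial and 50.1 and 57.8 CPM in the mesenchymal class, so its highest class differed between the libraries.

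Among clusters, 8 of the 10 genes had their highest level in the same cluster in both libraries, with Hif1a and Slc2a3 as the exceptions. Adm was at 61.6 CPM in the library labelled null and 76.4 CPM in that labelled control in the mesenchymal cluster led by Slc36a2 and Inmt, and at 42.7 and 43.1 CPM in the endothelial cluster led by Car4 and Ackr2, beside 4.84 and 4.30 CPM in the endothelial cluster led by Alox12 and Gja5. Ankrd37 was at 485 and 323 CPM in the cluster led by Car4. Epas1 was at 419 and 388 CPM in the endothelial cluster led by Gkn3 and Gm9946. Bnip3 was at 230 and 290 CPM, and Ddit4 at 107 and 123 CPM, in the mesenchymal cluster led by Lnx1 and Gdf10. Pfkfb3 was at 22.1 and 18.2 CPM in the cluster led by Slc36a2, and Slc2a1 at 69.0 and 45.1 CPM in the epithelial cluster led by Fam183b and Tmem212. Egln3 was at 111 and 87.0 CPM in the mesenchymal cluster led by Actc1 and Chrm2, with the endothelial cluster led by Alox12 close to it in the library labelled control (86.0 CPM).

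**Figure D4:**
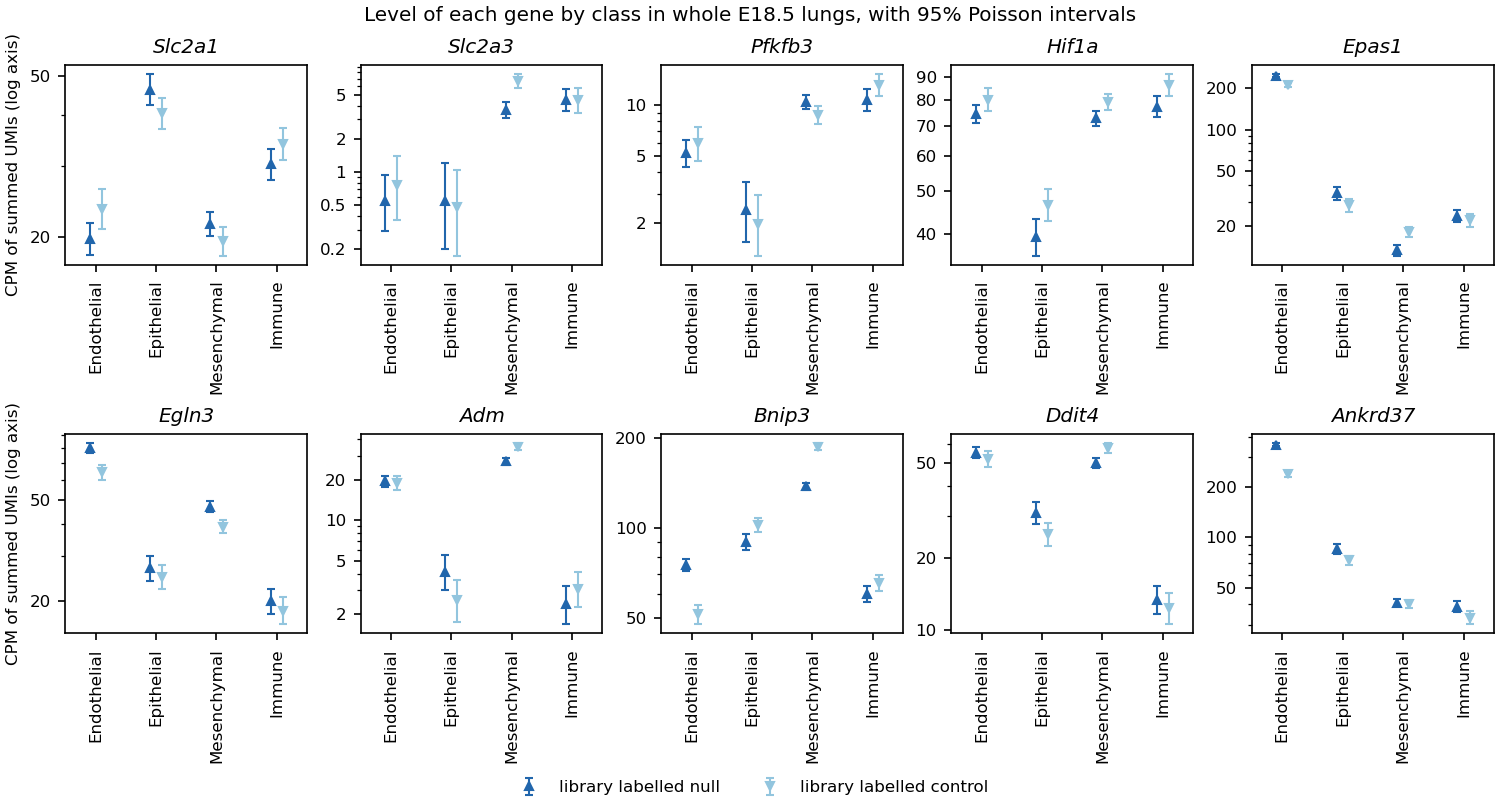
Level of each gene (CPM of summed UMIs, log axis, a scale of its own in each panel) in the 4 classes of the whole-lung libraries labelled null and control, with 95% Poisson intervals. Epas1 and Ankrd37 are highest in the endothelial class, at 245 and 358 CPM in the library labelled null, and Bnip3 and Adm in the mesenchymal class.

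Between the libraries labelled null and control, none of the 10 genes passed 2-fold in the endothelial, epithelial, mesenchymal or immune class, where 0.531%, 0.443%, 0.621% and 0.892% of all genes did. In gated ECs none passed either, beside 0.644% of all genes, nor in Gpihbp1-positive ECs, beside 0.622%. In Gja4-positive ECs Slc2a3 was lower in the library labelled null, with 9 UMIs against 10 (log2 ratio -1.09), beside 0.358% of all genes. In Esm1-positive ECs Pfkfb3 was lower, with 5 UMIs against 9 (-1.06), beside 3.93%, and its interval without pseudocount spanned 0 (-3.06 to 0.59). Both had a mean under 10 CPM there and so were not among the genes behind these shares. In gated ECs Ankrd37 was at 312 CPM in the library labelled null and 196 CPM in that labelled control (log2 ratio 0.67, interval 0.62 to 0.72), Bnip3 at 73.0 and 56.0 CPM (0.38) and Egln3 at 73.2 and 56.7 CPM (0.37). The median of all genes in that comparison was -0.01. Bnip3 was on opposite sides in 2 classes, with a log2 ratio of 0.55 in the endothelial class (0.42 to 0.68) and -0.44 in the mesenchymal class (-0.50 to -0.39). Gja4-positive cells were 48.76% of ECs in the library labelled null and 29.33% in that labelled control. Bnip3 was at 87.8 and 69.3 CPM in Gja4-positive ECs and at 58.7 and 50.3 CPM in Gja4-negative ECs of these libraries. The part of the mix of cells in the ratios between the libraries was not tested. The total fell more in the library labelled control (85648519 to 51419147) than in that labelled null (103857395 to 84694052) in the deposited SoupX-adjusted counts. These counts are adjusted for free RNA and also leave out Gm42418, a likely ribosomal RNA, so the fall is not that of free RNA alone. With the adjusted counts Bnip3 passed 2-fold in the endothelial class, at 2.42, and 6 values passed in the epithelial, mesenchymal and immune classes. The count of 0 thus rests on the use of unadjusted counts.

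The ECs of these unsorted lungs can be set beside the sorted E18.5 ECs. Ankrd37 was at 352 CPM in the sorted ECs and 312 and 196 CPM in the ECs of the libraries labelled null and control, Epas1 at 340 beside 209 and 184 CPM, Bnip3 at 37.6 beside 73.0 and 56.0 CPM, and Ddit4 at 80.7 beside 49.7 and 43.3 CPM. Slc2a1 (23.7 beside 20.3 and 24.4 CPM), Hif1a (71.3 beside 73.4 and 79.3 CPM) and Adm (19.3 beside 17.7 and 17.4 CPM) were close in all 3. Sorting, labelled genotype and Cell Ranger version differ between these libraries and cannot be told apart. Counts adjusted for free RNA exist for the whole lungs only, where Bnip3 was at 138 and 188 CPM in the mesenchymal class. The part of free RNA in these differences was not tested.

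The other genes of the pathway in ECs were counted from lists, over members with a mean of at least 10 CPM. Of 29 other genes known to rise in hypoxia, 3 of 20 were higher and 1 lower from E13.5 to E15.5, 4 of 23 higher and none lower from E15.5 to E18.5, and 3 higher and 4 lower of 23 from E18.5 to P8. Over all genes 2.22% were higher and 3.53% lower in the first step, 8.29% and 4.25% in the next and 3.74% and 3.67% in the last. The list's median log2 ratio was 0.26, 0.56 and -0.18 in the 3 steps, beside -0.08, 0.17 and 0.04 for all genes. Ndrg1, a stress-response gene, was also highest at E18.5, with 6.66, 25.6, 124 and 30.1 CPM in order of age. Igfbp3, which binds insulin-like growth factors, stood at 20.5, 100.3, 68.2 and 4.03 CPM. Vegfa, the main vessel growth factor, was higher at P8 than at E18.5, going from 52.6 to 206.5 CPM (log2 ratio 1.96).

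Of 10 genes of oxygen sensing and of the factor's subunits in ECs, Hif3a, whose product can restrain the other alpha subunits, was the one past 2-fold after E15.5, of 9 with a mean of at least 10 CPM, where 8.29% of all genes were higher at E18.5 and 3.67% lower at P8. Its level was 6.86, 31.9 and 0.0162 CPM over the 3 later ages, the last with 1 UMI (interval of the log2 ratio -16.25 to -8.46). Of 10 glucose transporters, 1 reached 10 CPM at E18.5, and it did not pass 2-fold in either later step, beside 12.5% and 7.41% of all genes in either direction. Txnip, which holds back glucose uptake, went from 192 to 795 CPM from E15.5 to E18.5 and stood at 367 CPM at P8. Among 5 genes of adrenomedullin reception, Calcrl, the receptor itself, went from 185 to 799 CPM from E15.5 to E18.5 (log2 ratio 2.11), and Ramp3, a partner of it, from 2.43 to 35.5 CPM from E18.5 to P8. Of 5 mitophagy partners of Bnip3, Pink1 (1.45) and Bcl2l1 (1.13) were higher at E18.5 than at E15.5, beside 8.29% of all genes, and none passed 2-fold at P8, beside 7.41% in either direction.

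Genes of tissue dissociation and of glucocorticoid signalling moved in ECs over the same steps. Of 10 dissociation and immediate early genes, 3 were higher in the first step, 9 in the step to E18.5 and 5 in the step to P8, and none was lower, where 2.22%, 8.29% and 3.74% of all genes were higher. Hspa1a stood at 34.2 CPM at E15.5 and 413 CPM at E18.5, and Fos at 218 and 1189 CPM. Of 6 glucocorticoid and circadian genes, 4 were higher at E18.5, beside the same 8.29%, where Zbtb16 went from 0.241 to 42.2 CPM, and at P8 3 were lower, with Zbtb16 at 2.38 CPM, and 1 was higher, beside 3.67% and 3.74% of all genes. Their part in the levels of the 10 genes was not tested.

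Across 20 EC populations of the sorted libraries, which share cells and libraries, the gene whose log2(CPM + 1) was most like that of each gene was named as a description. For Epas1 it was Tmem100 (Pearson r 0.990), for Bnip3 Apobec3 (0.944) with Ankrd37 next (0.923), for Adm Hmox1 (0.913) and for Slc2a1 Rpl7 (0.970), among 6134 genes.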

How the data were processed

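Single-cell RNA was measured in 6 libraries, 4 of sorted cells and 2 of whole lungs, each with 1 library per group. The authors aligned reads to mm10 with Cell Ranger (3.1 per the labels, 3.0.2 and 3.1.0 per the file headers) and deposited UMI counts, unnormalized whole numbers, for each gene in each cell. For the whole lungs they also deposited estimated counts adjusted for free RNA with SoupX, used here for cell filters and as an alternative. The labels also name Seurat 3.2.2.

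A cell was kept if 700 genes or more were detected and its mitochondrial share lay between 0.5% and 10%. UMIs were summed per library and population and scaled to CPM. Log2 ratios have 0.5 CPM added, the call was 2-fold, all genes with a mean of at least 10 CPM gave the background, and arms under 50 cells were not compared. Doublets were scored with Scrublet (expected share 6%), and their removal is an alternative. Whole-lung cells were clustered by Louvain at resolution 0.8 on 3000 variable genes without the genes reported, and clusters were classed by fixed markers. The rules for mixed and unclassed clusters were set after the clusters were seen. Python 3.11.15, scanpy 1.11.5, scikit-learn 1.9.0, scipy 1.17.1, numpy 2.4.6 and pandas 2.3.3 were used. The log2 ratio and the 2-fold call were tested on simulated summed counts, and the other steps were not. The 10 genes and all lists were chosen with earlier results of these data known. Genes outside the 10 were named from the 3 largest ratios of a list and step. UMIs count molecules, and intervals and floors cover counting error only. Several animals were pooled per library, and no p-value was computed. Promoters are from RefSeq, GRCm38.p6.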

Additional observations from a re-analysis of the deposited data

Results flagged for a closer look

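Adm was flagged because its ratio between Esm1-positive ECs and the other ECs went opposite ways at successive time points. The log2 ratio was 2.31 at E15.5 (97 UMIs in 235 positive cells) and -1.07 at E18.5 (12 UMIs in 179 positive cells). The difference was not tested, as there was 1 library per time point. The E18.5 value fell short of 2-fold when cells were thinned before gating, with 5 CPM added, or with the gate at 1 UMI, and the E15.5 value passed 2-fold in all 11 alternatives. The whole E18.5 lungs lay on opposite sides. Adm stood at 12.2 CPM in Esm1-positive and 17.9 CPM in Esm1-negative ECs of the library labelled null, and at 24.5 and 17.1 CPM in that labelled control.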

How the results depend on the processing

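Of 2195 values recomputed under alternatives, 1913 stayed within their counting interval or within 1.5 times a count, 282 moved. None past 2-fold changed sign, while values under 2-fold could, as Adm for the Gpihbp1 gate at E18.5 did (0.42, and -0.53 with cells past Gpihbp1 alone set against cells past none). In the sorted libraries, 71 ratios of the 10 genes passed 2-fold. Of these, 47 stayed past it in every alternative run for them and 24 did not in at least 1. Ratios past 2-fold in the whole lungs, such as those of Adm for the Gja4 gate, are not in this count. Among the summary counts, those between the libraries labelled null and control and that of the Gja4 gate over the 3 later ages moved. With SoupX-adjusted counts, 1 value passed 2-fold in the endothelial class (Bnip3) and 6 in the epithelial, mesenchymal and immune classes, against 0 in the main values. In those classes 1 passed with Scrublet calls left out and 1 with classes set by UMI gates. With cells past 1 gate only set against cells past none, 1 gene (Ddit4) was higher for Gja4 at E15.5, E18.5 and P8, against 0. The cause was not tested. Leaving out the barcodes that both whole-lung libraries hold, an alternative chosen after seeing the data, as were the steps within gates, moved none of these counts. Depth limited Slc2a3, the 210 ECs at E13.5 and the Esm1-positive cells. No paired analysis was possible because each group had 1 library and no result came from a test.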

Other observations

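Further levels were measured in the sorted cells outside the EC rule. Adm stood there at 3.96 CPM at E13.5 and 44.4 CPM at P8. In the E13.5, E18.5 and P8 libraries, Egln3 was at 8.60, 32.7 and 9.65 CPM and Bnip3 at 17.5, 46.7 and 9.65 CPM. Egln3 and Bnip3 were thus higher at E18.5 than at E13.5 and P8 over these cells, with 10 UMIs of each at P8. The cells numbered 12516 at E13.5, 423 at E18.5 and 192 at P8. Of these, 155, 126 and 97 held exactly 1 UMI of Pecam1 and Cdh5 together. Epas1 stood in them at 3.53, 39.8 and 183 CPM. Their make-up at each age was not tested, so these levels are not read as a pattern outside endothelium. Hif1a ranged from 70.7 to 85.1 CPM over the 4 libraries.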
